A study of Mus musculus with 22 samples.

Results

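Genes of plasma cells and immunoglobulins were followed across 22 kidney cortex libraries of aged mice. Of 9 listed genes, 7 were found by their symbol in the authors' normalized table. Igkc carries no symbol there and was found by its Ensembl identifier in GENCODE release M21, which gave 8 genes of the 16556 in the count table. The other listed gene, Cd79a, was not analysed here. The 8 genes are the heavy chain constant genes Ighm, Ighg2b, Ighg2c and Igha, the kappa light chain constant gene Igkc, the joining chain gene Jchain, the plasma cell and B cell chaperone gene Mzb1, and the B cell receptor gene Cd79b. All 8 passed the filter on low counts, as did 15064 genes in all.

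The mice were male C57BL/6J animals. The study deleted Crat, the gene of the acetyl-group transferring enzyme carnitine acetyltransferase in proximal tubule cells by means of Cre under control of the Ggt promoter, so lymphocytes were not the target. Floxed mice (fl/fl; "Wt" in the library titles, with no Cre promoter in the labels) were compared with floxed mice carrying the Cre (Pt-CrAT; "CrAT" in the titles). Both were sampled at 12 months with "LFD" in the title (3 fl/fl and 3 Pt-CrAT), at 15 months with chow (3 and 3) and at 24 months with chow (5 and 5). The labels do not spell out LFD, and since that word changes together with age, no change was read between the 12-month libraries and the older ones, and values side by side are descriptions. Each title names 1 animal, and nothing in the labels tells of litter, cage or day, so p-values measure the spread between these libraries.

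Plasma cells are the antibody-secreting end stage of B cells. Their messenger RNA is dominated by one heavy chain and one light chain, and in B cell development class switching exchanges the constant region of the heavy chain from IgM to IgG or IgA. The joining chain links IgM and IgA units into polymers that epithelia can carry to the lumen through the polymeric immunoglobulin receptor. In ageing mouse tissues, the kidney among them, long-lived plasma cells and class-switched B cells are known to collect. In bulk cortex such transcripts come mainly from few cells of the B lineage among many kidney cells. With bulk samples, more cells of a type and more RNA per cell cannot be told apart.

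The heavy chain genes lie in a row on the minus strand of chromosome 12 (GRCm38): Ighm at chr12:113418558-113422730, Ighg2b at chr12:113302965-113307933, Ighg2c at chr12:113285325-113288932 and Igha at chr12:113254830-113260236. Igkc lies on the plus strand at chr6:70726435-70726966, Jchain on the minus strand at chr5:88519809-88527891, and Cd79b on the minus strand at chr11:106311341-106314762. The heavy chain genes and Jchain are described by class below, and the secreted ends of the heavy chains show a feature in which these classes differ. IgM and IgA end in a tailpiece whose penultimate residue is a cysteine, to which the joining chain is bonded. IgG has no such tailpiece. The last 60 coding bases and the stop codon of the secreted form are given 5′ to 3′ on the minus strand of GRCm38 chromosome 12, as annotated by GENCODE release M21, with the last 2 codons and the stop codon in capitals.
Ighm, chr12:113420867-113420929: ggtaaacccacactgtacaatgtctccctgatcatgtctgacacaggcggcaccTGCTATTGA
Igha, chr12:113258768-113258830: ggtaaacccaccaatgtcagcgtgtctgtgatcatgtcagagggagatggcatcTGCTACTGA
Ighg2b, chr12:113306389-113306451: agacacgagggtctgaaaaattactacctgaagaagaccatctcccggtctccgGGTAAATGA
Ighg2c, chr12:113287389-113287451: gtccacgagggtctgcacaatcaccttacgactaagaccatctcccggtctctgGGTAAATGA

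Ighm and Igha end in TGCTAT and TGCTAC, each a cysteine codon followed by a tyrosine codon. Ighg2b and Ighg2c both end in GGTAAA, a glycine and a lysine codon. The ends of Ighm and Igha were identical at 44 of 63 aligned positions and those of Ighg2b and Ighg2c at 49 of 63. Ighm shared 28 and 24 of 63 positions with Ighg2b and Ighg2c, and Igha shared 15 and 16. Since immunoglobulin genes resemble each other, the last 500 bases of the annotated transcripts were also searched for 50-base words that occur in another gene on the same strand. None was found for Ighm, Ighg2b, Igha, Igkc, Jchain or Cd79b, and 2.11% of the words of Ighg2c also occur in Ighg2b. For Mzb1 the share was 83.8%, all of it with a read-through gene model named SPATA24 that runs into the exons of Mzb1, so its counts carry an uncertainty that depends on how reads on shared exons were assigned. The separate gene Spata24, chosen for a look after its overlap was seen, had a log2 fold change of 0.03 (SE 0.16) from 15 to 24 months.

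Depth was 12175804 to 17447367 counts per library, and 53157575 in CrAT12MLFD345. The 8 genes had 240 (Cd79b) to 37248 (Igkc) counts over all libraries, and immunoglobulin constant genes together took 0.00527% to 0.0839% of a library's counts. Levels are given as CPM, counts scaled to the library's TMM-adjusted total. As tags are read at the 3′ end of each transcript, a CPM does not depend on transcript length. Crat itself ran against the labels at 15 months. The libraries labelled Pt-CrAT held 63.1 to 72.6 CPM there, and those labelled fl/fl held 34.3 to 60.02 CPM. The log2 difference was 0.61 (SE 0.27, edgeR adjusted p = 0.581). At 24 months Pt-CrAT libraries (28.4 to 38.9 CPM) lay below fl/fl libraries (43.5 to 112 CPM), with a difference of -1.04 (SE 0.21, adjusted p = 0.177), and at 12 months the groups overlapped. Genotypes at 15 months are therefore those of the labels, and any change with age within a genotype rests on them. The mean change with age averages the changes of both labelled genotypes. A full exchange of the 15-month labels would leave it as it is, while any other regrouping of these libraries would alter it. In CrAT24Mchow123 and CrAT24Mchow136 the summed level of 7 proximal tubule markers was 10961 and 9428 CPM, against 27312 to 41158 CPM in the other libraries at 24 months. The fitted comparisons that use these libraries were therefore also run without both. Shares and relations between genes were not.

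The IgG genes were the members that differed most between 15 and 24 months. Ighg2b and Ighg2c, the genes of the IgG2b and IgG2c heavy chains, were higher in every library at 24 months than in any library at 15 months. Igkc, the constant gene of most mouse light chains, and Mzb1, whose product helps antibody chains fold and assemble in the endoplasmic reticulum, also rose. Ighm, Igha, Jchain and Cd79b did not pass the test. In the edgeR quasi-likelihood test of the mean change over both genotypes, 4 of the 8 members were called higher and none lower at a Benjamini-Hochberg adjusted p under 0.05. Over all 15064 genes, 9.41% were called higher and 16.4% in either direction. The median log2 fold change of the 8 members was 1.1802, and that of all genes tested was 0.02. The members were chosen with earlier results of these data known, so these values side by side are a description.

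Ighg2c stood at 1.68, 1.31 and 1.69 CPM in the fl/fl libraries at 15 months (Wt15Mchow205, Wt15Mchow225 and Wt15Mchow227). The libraries labelled Pt-CrAT held 0.753, 0.212 and 0.161 CPM (CrAT15Mchow183, CrAT15Mchow185 and CrAT15Mchow204). At 24 months the fl/fl libraries held 7.61, 5.44, 41.5, 3.78 and 8.72 CPM (Wt24Mchow145, Wt24Mchow154, Wt24Mchow164, Wt24Mchow165 and Wt24Mchow168), and the Pt-CrAT libraries 10.7, 3.20, 11.9, 31.4 and 11.7 CPM (CrAT24Mchow123, CrAT24Mchow124, CrAT24Mchow135, CrAT24Mchow136 and CrAT24Mchow146). The ages do not overlap, and Wt24Mchow164 and CrAT24Mchow136 stand well above the other libraries of their groups. Over both genotypes Ighg2c stood at 0.968 ± 0.695 CPM (SD, n = 6) at 15 months and 13.6 ± 12.7 CPM (SD, n = 10) at 24 months. The mean change was 4.13 on the log2 scale (SE 0.67, edgeR adjusted p = 0.000647, 6 libraries against 10). Few reads stand behind the lower age: the 3 libraries labelled Pt-CrAT at 15 months held 15 counts in all, against 1070 in the 5 at 24 months. The ratio of the pooled CPM was 36.9 there (exact 95% interval 22.3 to 66.2) and 8.60 in fl/fl (63 against 902 counts, 6.66 to 11.3). These intervals cover counting error only, and amplified reads that carry no molecular identifier do not count molecules.

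Ighg2b held 1.84, 2.13 and 2.69 CPM in fl/fl and 0.828, 2.19 and 0.402 CPM in the libraries labelled Pt-CrAT at 15 months, in the same order of libraries. At 24 months it held 11.5, 4.82, 33.7, 3.70 and 6.68 CPM in fl/fl and 26.1, 5.31, 15.3, 17.7 and 17.0 CPM in Pt-CrAT. Again every library at 24 months lay above every library at 15 months, and Wt24Mchow164 was the highest. Levels went from 1.68 ± 0.880 CPM (SD, n = 6) to 14.2 ± 9.92 CPM (SD, n = 10). The mean change was 3.12 (log2, SE 0.52, edgeR adjusted p = 0.000807). The ratio of pooled CPM was 13.9 (10.4 to 19.1) in Pt-CrAT, with 47 and 1265 counts, and 5.46 (4.38 to 6.86) in fl/fl, with 90 and 817 counts.

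Igkc was even among the libraries at 15 months, with 53.5, 49.9 and 60.6 CPM in fl/fl and 57.6, 65.1 and 58.8 CPM in the libraries labelled Pt-CrAT. At 24 months it spread from 57.2 CPM in Wt24Mchow168 to 380.0 CPM in CrAT24Mchow136. Elsewhere at 24 months fl/fl libraries held 172, 116, 252 and 188 CPM, and the other Pt-CrAT libraries 118, 138, 268 and 132 CPM. Only Wt24Mchow168 lay within the range of the 15-month libraries. Levels went from 57.6 ± 5.35 CPM (SD, n = 6) to 182 ± 94.4 CPM (SD, n = 10). The mean change was 1.65 (log2, SE 0.34, edgeR adjusted p = 0.00363).

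Mzb1, on the minus strand at chr18:35647267-35649367, moved from 6.25 to 7.71 CPM in the 6 libraries at 15 months (median 7.27) to 9.88 to 18.6 CPM in the 10 at 24 months (median 14.7). The ages do not overlap. At each age the spread was small relative to the mean (7.17 ± 0.526 CPM, SD, n = 6, and 14.5 ± 3.63 CPM, SD, n = 10). Its mean change was 1.02 (log2, SE 0.16, edgeR adjusted p = 0.000301). Ighg2b, Ighg2c and Mzb1 were the members whose 24-month libraries all lay above all 15-month libraries. Of all genes tested, 1.79% did so.

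Ighm, the gene of the IgM heavy chain, had 11.5 to 36.9 CPM at 15 months (median 20.6) and 13.6 to 200.4 CPM at 24 months (median 50.6). The ages overlap, since CrAT24Mchow123, Wt24Mchow168, Wt24Mchow154 and Wt24Mchow165 stood at 13.6, 13.8, 20.8 and 34.2 CPM (log2 fold change 1.32, SE 0.54, edgeR adjusted p = 0.101). Igha, the gene of the IgA heavy chain, ranged from 15.7 to 103 CPM at 15 months (median 34.4) and from 26.5 to 195 CPM at 24 months (median 61.2), with a log2 fold change of 1.04 (SE 0.47, edgeR adjusted p = 0.141). Jchain had 10.3 to 19.6 CPM (median 16.7) and then 12.2 to 61.2 CPM (median 32.1), with a log2 fold change of 1.04 (SE 0.37, edgeR adjusted p = 0.063). Its call depends on the method and on single libraries: the adjusted p was 0.038 with DESeq2, 0.0418 with edgeR without robust estimation, and 0.0435, 0.0373 and 0.0326 without Wt24Mchow154, Wt24Mchow168 or CrAT24Mchow123. Cd79b, which encodes a signalling chain of the B cell receptor, had 0.382 to 0.965 CPM and then 0.262 to 1.61 CPM (log2 fold change 0.30, SE 0.36, edgeR adjusted p = 0.604). Between 4 and 24 reads per library stand behind Cd79b, so a small change in it would not have been detectable at this depth.

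**Figure D1:**
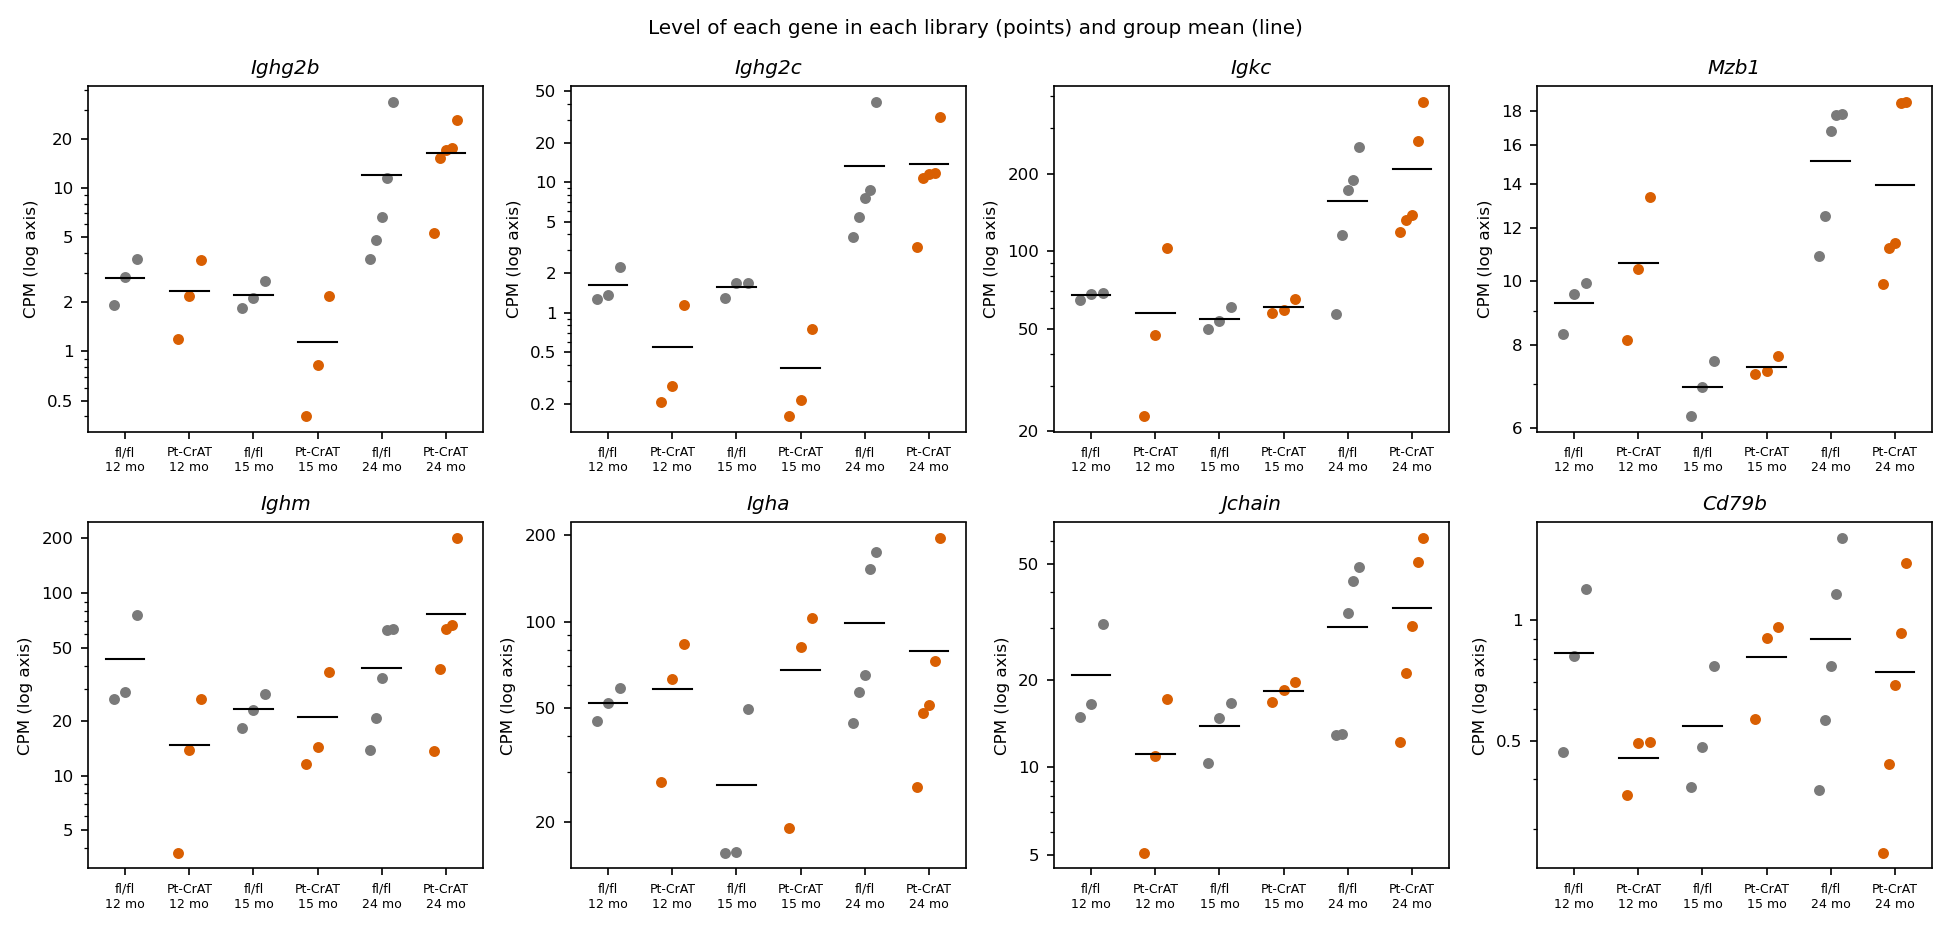
Level of each of the 8 genes (CPM, log axis) in every library (points) of the 6 groups by genotype and age, with the group mean as a line. For Ighg2b, Ighg2c and Mzb1 all 10 libraries at 24 months lie above all 6 at 15 months, while Cd79b overlaps throughout.

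The same 4 calls were made in Pt-CrAT taken alone, where 5.61% of all genes were called higher and 11.3% in either direction. Ighg2c changed by 5.17 (log2, SE 1.03, edgeR adjusted p = 0.00501), Ighg2b by 3.80 (SE 0.77, 0.00525), Igkc by 1.78 (SE 0.48, 0.0242) and Mzb1 by 0.91 (SE 0.23, 0.013). Igkc lost its call without CrAT24Mchow136 or without any of the 3 libraries at 15 months (highest adjusted p = 0.106), and Mzb1 without CrAT15Mchow185 or CrAT15Mchow204 (highest 0.0694). Without both CrAT24Mchow123 and CrAT24Mchow136, Igkc stood at 1.56 (adjusted p = 0.0867) and Mzb1 at 0.84 (0.0619), while both IgG genes stayed called. In fl/fl taken alone, Mzb1 was the single member called (1.13, SE 0.23, edgeR adjusted p = 0.0178), against 0.823% of all genes called higher and 1.30% in either direction. That call was lost without Wt15Mchow205, Wt15Mchow225, Wt15Mchow227 or Wt24Mchow165 (highest adjusted p = 0.105). Ighg2b stood at 2.44 (adjusted p = 0.0754), Ighg2c at 3.10 (0.0663) and Igkc at 1.52 (0.0965) in fl/fl. In fl/fl DESeq2 called Ighg2b, Ighg2c and Igkc, at adjusted p-values of 0.0155, 0.00741 and 0.0327. In fl/fl the ages did not overlap for Ighg2b, Ighg2c and Mzb1, as for 8.7% of all genes, and in Pt-CrAT for these and Igkc, as for 10.5%.

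Whether the change with age differed between the genotypes was tested as an interaction. No member passed, and no gene of the 15064 was called by edgeR (0%; 2255 had an unadjusted p under 0.05, and DESeq2 called 23). The interaction of Ighg2c was 2.07 (log2, SE 1.37, adjusted p = 0.443), that of Ighg2b 1.36 (SE 1.01, 0.493) and that of Igha -1.65 (SE 0.92, 0.381). The larger value of Ighg2c in Pt-CrAT is thus not shown to differ from that in fl/fl.

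Pt-CrAT and fl/fl were then compared at each age, as labelled. Since Crat was lower without overlap in Pt-CrAT at 24 months and not at the other ages, the comparisons at 12 and 15 months and the mean over ages are between labels. No member was called at any age or in the mean over the 3 ages. At 12 months 16.4% of all genes were called in either direction, and in the mean over ages 0.0266% (4 genes; 3091 had an unadjusted p under 0.05, and DESeq2 called 195). At 15 and 24 months edgeR called 0% of the genes, with 1249 and 1409 at an unadjusted p under 0.05 (DESeq2 called 0 and 8). At 24 months the log2 differences ran from -0.32 for Igha (SE 0.55) to 0.97 for Ighm (SE 0.62, edgeR adjusted p = 0.613), and the genotypes overlapped for all 8 genes. Without CrAT24Mchow123 and CrAT24Mchow136 together, the difference of Ighm was 0.52 (SE 0.58, edgeR adjusted p = 0.982).

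Ighg2c had the widest gap between genotypes at the younger ages. At 12 months it held 1.36, 1.27 and 2.24 CPM in fl/fl (Wt12MLFD326, Wt12MLFD327 and Wt12MLFD368) and 0.274, 1.15 and 0.206 CPM in Pt-CrAT (CrAT12MLFD328, CrAT12MLFD337 and CrAT12MLFD345). All 3 Pt-CrAT libraries lay below all fl/fl libraries, though CrAT12MLFD337 came close (log2 difference -1.88, SE 1.13, edgeR adjusted p = 0.255). Of all genes tested, 13.8% lay apart in that direction. At 15 months the labelled groups also lay apart (values above; -2.02, SE 1.23, adjusted p = 0.591), as did 12.7% of all genes. At 24 months the difference was 0.04 (SE 0.58). The mean over the 3 ages was -1.29 (SE 0.59, unadjusted p = 0.0425, adjusted p = 0.231). Jchain lay apart at 15 months, higher in the libraries labelled Pt-CrAT (16.7 to 19.6 CPM) than in those labelled fl/fl (10.3 to 16.6 CPM), with a log2 difference of 0.40 (SE 0.58, adjusted p = 0.802). Of all genes, 11.6% lay apart in that direction.

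At 12 months the highest IgM level was in a fl/fl library. Ighm held 75.8, 26.5 and 28.6 CPM in fl/fl and 13.9, 26.5 and 3.78 CPM in Pt-CrAT (log2 difference -1.61, SE 0.84, edgeR adjusted p = 0.186). Igkc held 69.0, 68.4 and 64.7 CPM in fl/fl and 47.0, 103 and 22.9 CPM in Pt-CrAT. CrAT12MLFD345, the most deeply sequenced library, had the lowest Ighm, Igkc and Jchain (5.10 CPM) of all 22, and CrAT12MLFD337 was the highest of its group of 3 for every member but Cd79b. Igha held 45.0, 51.9 and 59.0 CPM in fl/fl and 63.4, 83.3 and 27.6 CPM in Pt-CrAT.

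**Figure D2:**
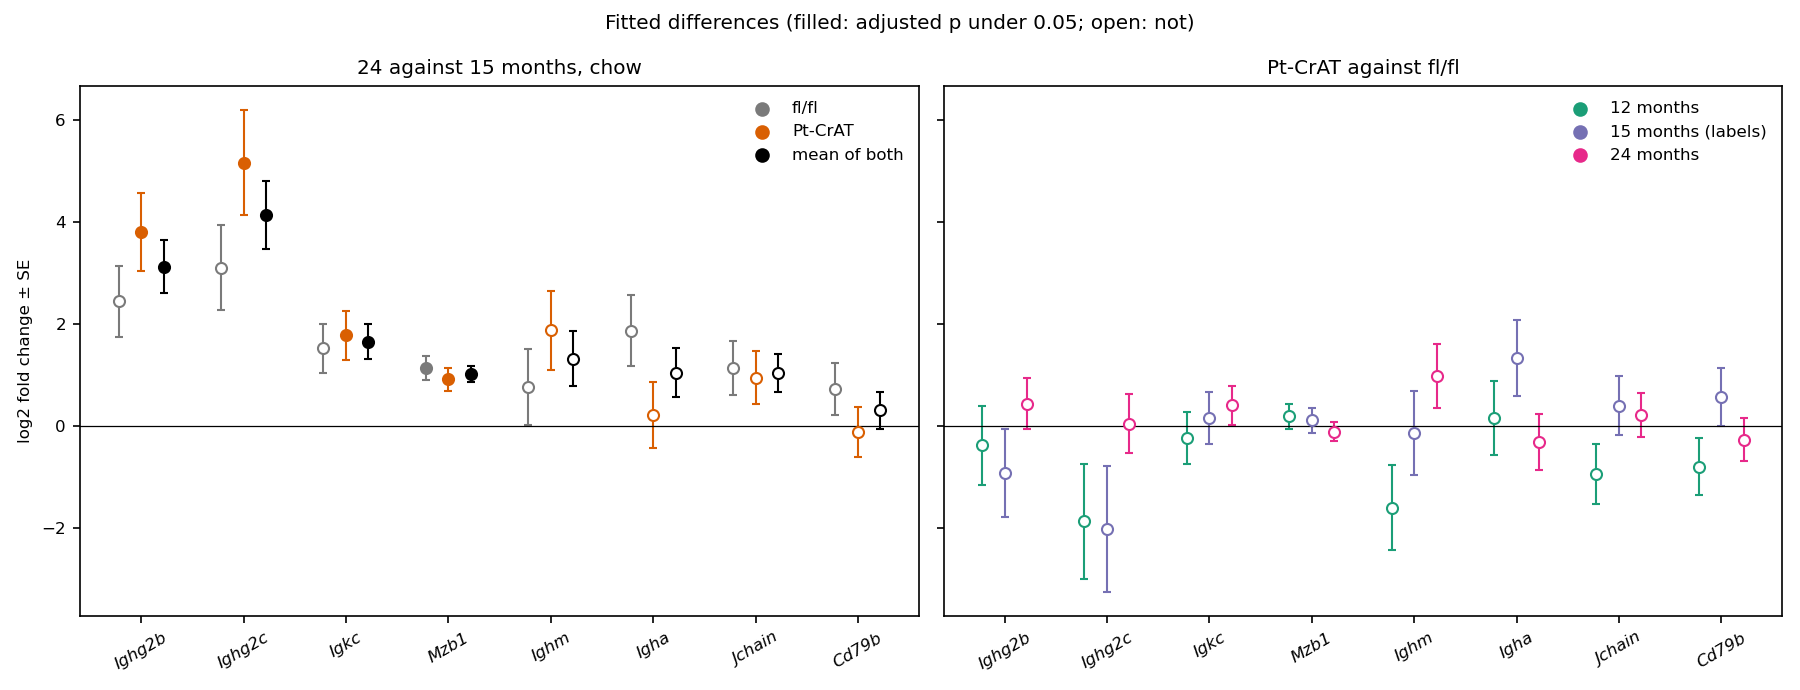
Fitted log2 fold change and its standard error for each gene, on the left from 15 to 24 months (fl/fl, Pt-CrAT and the mean of both), on the right Pt-CrAT against fl/fl at each age; filled points have an edgeR adjusted p under 0.05. Filled points occur in the left panel only, with Ighg2c at 4.13 and Ighg2b at 3.12 in the mean change.

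The make-up of the heavy chain counts was described within each library. Of the heavy chain constant counts, Igha was the largest part in 15 libraries and Ighm in 7 (Wt12MLFD326, Wt15Mchow225, Wt15Mchow227, CrAT15Mchow183, Wt24Mchow145, CrAT24Mchow124 and CrAT24Mchow136). The 4 IgG genes in the table (Ighg1, Ighg2b, Ighg2c and Ighg3) together took 2.88% to 6.74% at 12 months (median 4.87%), 0.696% to 13.7% at 15 months (median 4.55%) and 4.04% to 31.5% at 24 months (median 16.2%). The shares at 15 and 24 months overlap, as Wt24Mchow165 stood at 4.04% (exact binomial 95% interval 3.34% to 4.83%) and Wt15Mchow227 at 13.7% (11.2% to 16.5%). CrAT24Mchow123 had the highest share at 31.5% (29.4% to 33.6%), and the lowest Ighm level of its age. Shares were described and not tested.

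**Figure D3:**
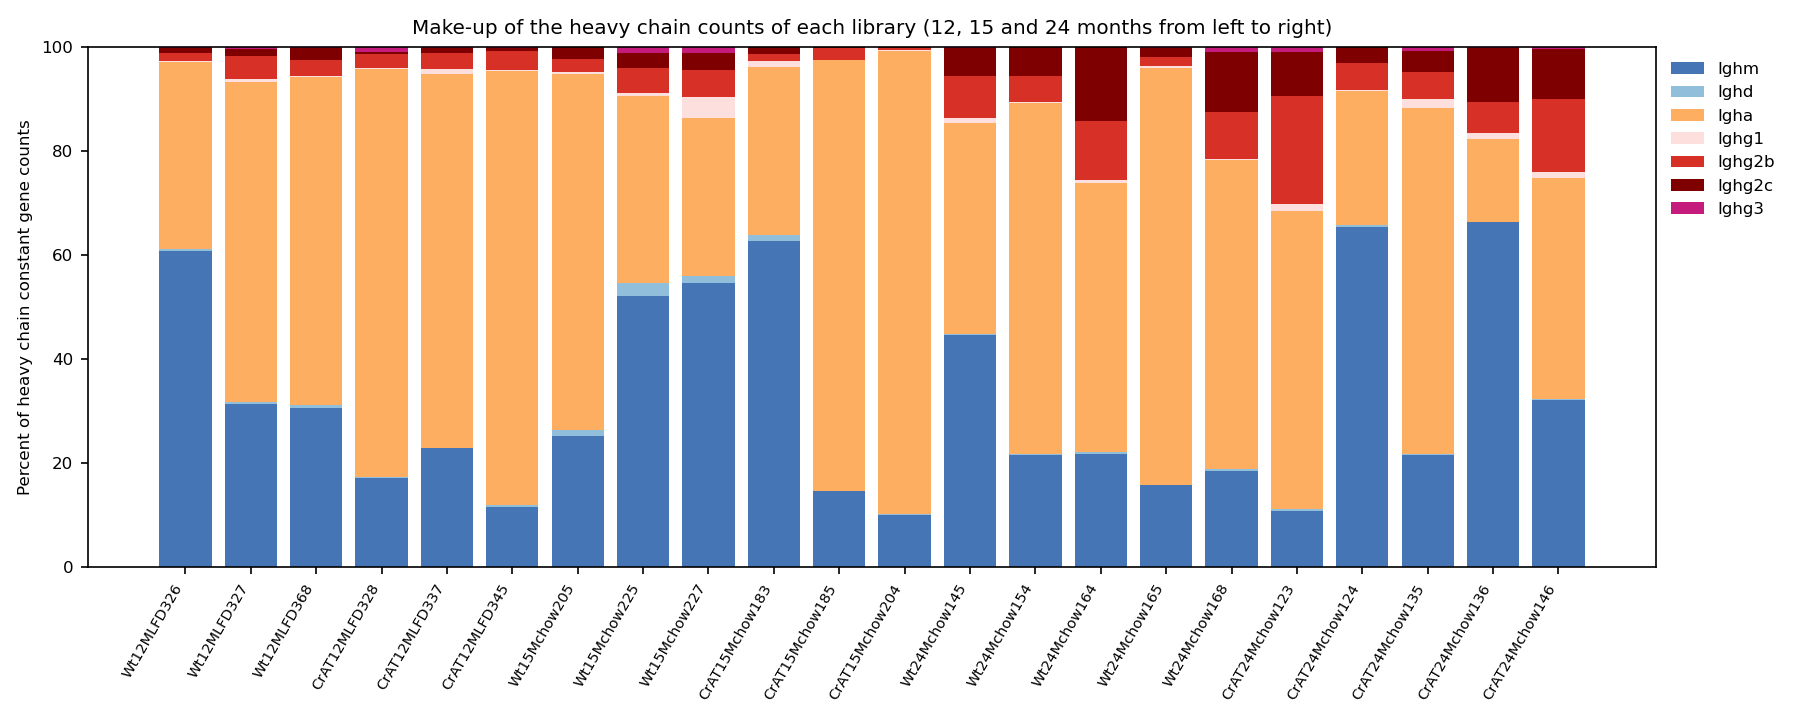
Percent of the heavy chain constant counts of each library that came from each gene, with libraries in columns from 12 months (left, shown with no comparison to the others) to 24 months (right). The IgG genes (pink, red, dark red and magenta) together had a median of 4.55% at 15 months and 16.2% at 24 months with overlap between the ages, and either Igha or Ighm is the largest part of every column.

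Light chain counts were mostly kappa. Igkc took 88.3% to 94.1% of the kappa and lambda constant counts at 12 months, 86.9% to 96.0% in 5 libraries at 15 months, and 94.3% to 97.0% in 9 libraries at 24 months. CrAT15Mchow183 stood apart at 66.3% (63.5% to 69.1%) and CrAT24Mchow124 at 82.0% (80.3% to 83.5%). In these the lambda constant gene Iglc1 held 28.8 and 29.5 CPM, against 1.40 to 13.8 CPM in the other 20 libraries. Both also had more Ighm than Igha. So did Wt12MLFD326, Wt15Mchow225, Wt15Mchow227, Wt24Mchow145 and CrAT24Mchow136, where the kappa share was 93.6% to 96.0%. Igkc counts were 0.509 to 1.34 times the summed heavy chain counts (median 0.875), and Jchain counts 0.141 to 0.379 times those of Ighm and Igha together (median 0.213).

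At 24 months, where 10 libraries allow it, each member was set against Igkc on the scale of log2(CPM + 0.5). Of 7 relations, 3 passed after Benjamini-Hochberg adjustment. Jchain had r = 0.87 (permutation p = 0.00018, adjusted 0.00126) and rho = 0.95 (p = 0.00018), and r = 0.93 without Wt24Mchow168 and CrAT24Mchow136, the libraries farthest from the median of Igkc. Ighm had r = 0.85 (permutation p = 0.00126, adjusted 0.00441), rho = 0.78 (p = 0.0105) and r = 0.67 without these libraries. Mzb1 had r = 0.72 (permutation p = 0.0154, adjusted 0.0358), rho = 0.81 (p = 0.00732) and r = 0.67 without them. The 4 other relations did not pass: Ighg2c had r = 0.52 (permutation p = 0.12, rho = 0.48), Igha 0.43 (0.204, rho = 0.37), Ighg2b 0.40 (0.248, rho = 0.32) and Cd79b 0.28 (0.447, rho = 0.20). Without the same libraries r was 0.50, 0.75, 0.29 and -0.08 in this order. Within each genotype there are 5 libraries, too few for a value. Over all 22 libraries, with each group's mean taken off, the order was much the same: Jchain 0.86, Mzb1 0.84, Ighm 0.80, Ighg2c 0.52, Igha 0.50, Ighg2b 0.42 and Cd79b 0.26. These last values are descriptions, and the points share the library's piece of tissue and its scaling.

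**Figure D4:**
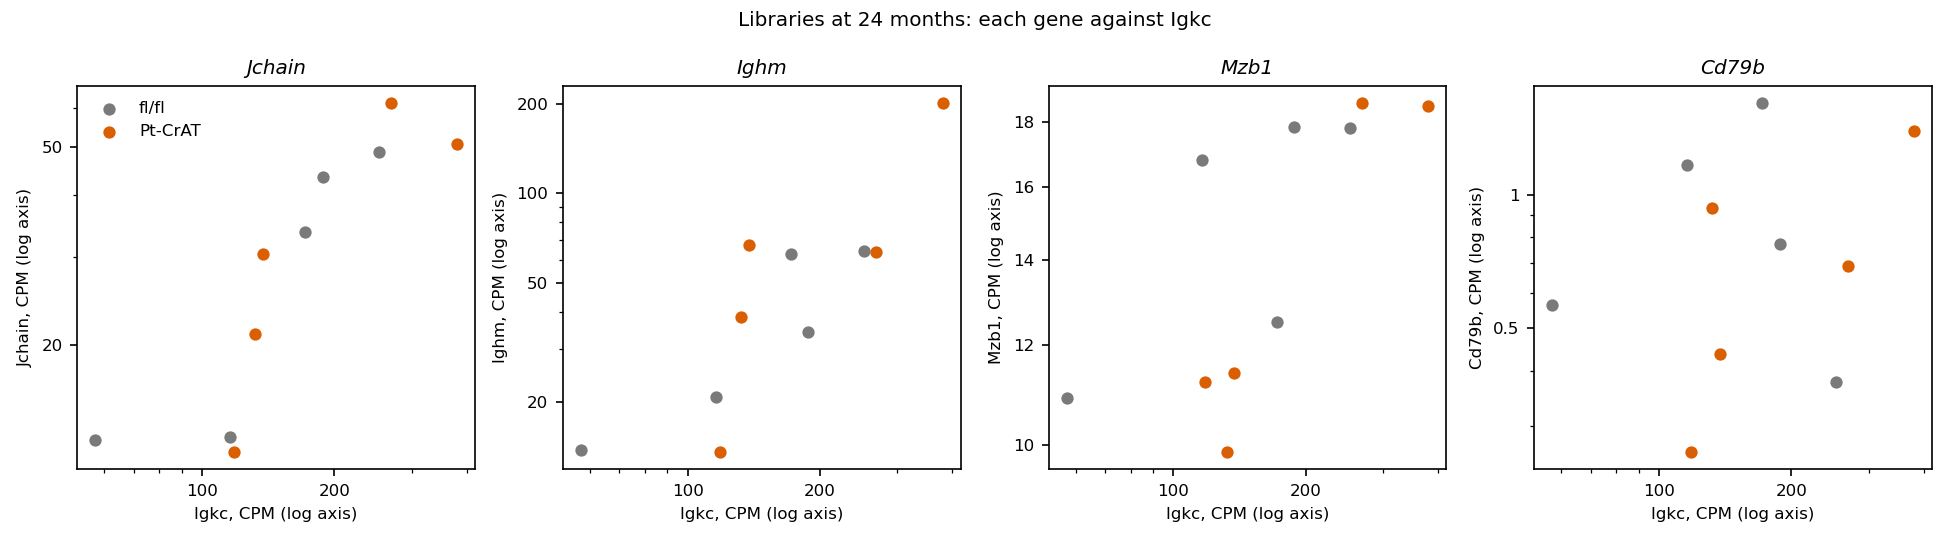
Jchain, Ighm, Mzb1 and Cd79b against Igkc (CPM, log axes) in the 10 libraries at 24 months, fl/fl in grey and Pt-CrAT in orange. Jchain climbs with Igkc almost in rank order (rho = 0.95), while Cd79b shows little relation (rho = 0.20).

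Genes other than the members and the immunoglobulin genes were ranked by how far their deviations from the group means resembled those of Igkc over the 22 libraries. Highest were Banp (r = 0.74), Ppp1r7 (0.74), Slpi (0.73), Mospd1 (0.72), Morc3 (0.66), Atl3 (0.65), Rnf44 (0.65) and Etv4 (0.65), out of 13324 genes with a mean of at least 1 CPM. Each of these genes lay below the values of Jchain, Mzb1 and Ighm. They are the highest of many values, and none was tested.

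Other immunoglobulin genes were less abundant. Ighg1 had 0.0413 to 5.25 CPM, Ighd, the gene of the IgD heavy chain of naive B cells, 0 to 1.03 CPM, and Iglc2 0 to 3.08 CPM. Of the 5 tested, none was called in the mean change with age: Ighg1 stood at 1.49 (log2, SE 0.73, edgeR adjusted p = 0.169), Iglc1 at 0.85 (SE 0.52, 0.278), Iglc2 at 1.78 (SE 0.65, 0.064), Ighd at -0.46 (SE 0.43, 0.498) and Ighg3 at 3.30 (SE 1.26, 0.0773), a fitted value that depends on how counts of 0 are treated. Ighg3 had no count in the 3 libraries labelled Pt-CrAT at 15 months and 79 in the 5 at 24 months. In fl/fl it had 0, 7 and 8 counts in the 3 libraries at 15 months and 2, 0, 3, 5 and 10 in the 5 at 24 months. Against a chosen floor of 3 counts over the 15-month group, the pooled Pt-CrAT level at 24 months was 13.6-fold higher. That ratio does not cover the spread between animals: CrAT24Mchow124 held none either and CrAT24Mchow135 held 43 of the 79. Ighg3 and Iglc2 were called higher in Pt-CrAT (edgeR adjusted p = 0.0284 and 0.0364). Both calls were lost without CrAT15Mchow183, CrAT15Mchow185 or CrAT15Mchow204 (highest adjusted p = 0.111 and 0.167), and that of Iglc2 also without CrAT24Mchow135 or CrAT24Mchow136 (0.0749 and 0.0765) or both CrAT24Mchow123 and CrAT24Mchow136 (0.0547). Neither was called by limma-voom (0.0702 for Ighg3 and 0.121 for Iglc2) or in a fit of the compared groups alone (0.0735 and 0.076). Ighg3 passed the filter on low counts in 5 of the 8 fits that left out a single library, and kept its call in 2. It did not pass that filter without CrAT24Mchow123 and CrAT24Mchow136 together, so it was not tested there.

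Genes listed for the plasma cell programme, its transcription factors and secretory machinery, moved in both directions. Of 21 tested genes of the plasma cell programme, 3 were higher and 1 lower in the mean change with age, with a median log2 fold change of 0.09. The share called, 4 of 21, is near the 16.4% of all genes called in either direction. Pou2af1, a coactivator of immunoglobulin promoters, rose by 1.20 (SE 0.30, edgeR adjusted p = 0.00942), from 1.06 to 3.09 CPM at 15 months to 1.62 to 8.01 CPM at 24 months. Irf4, a factor that plasma cells need to form and survive, rose by 1.31 (SE 0.41, adjusted p = 0.031), and Derl3, a protein of endoplasmic reticulum quality control, by 1.14 (SE 0.33, adjusted p = 0.0233). Herpud1, of the same quality control, fell by 0.61 on the log2 scale (SE 0.12, adjusted p = 0.00212). It had 292060 counts over all libraries, against 1088 for Pou2af1, 341 for Irf4 and 173 for Derl3. Which cells its transcripts came from was not tested. Xbp1 (-0.36, adjusted p = 0.379), Prdm1 (0.07, 0.788) and Sdc1 (0.23, 0.311), which mark plasma cells but are also transcribed by kidney cells, did not pass. Irf4 lost its call without Wt15Mchow225, Wt15Mchow227, Wt24Mchow145 or any of the 3 libraries labelled Pt-CrAT at 15 months (highest adjusted p = 0.082, without CrAT15Mchow185), and without CrAT24Mchow123 and CrAT24Mchow136 together (0.0607). Derl3 lost it without Wt15Mchow225, Wt15Mchow227, CrAT15Mchow183 or CrAT15Mchow185 (highest 0.0663, without the last). Derl3 passed the filter on low counts in 13 of the 16 fits that left out a single library, and kept its call in 9. It did not pass that filter without CrAT24Mchow123 and CrAT24Mchow136 together, so it was not tested there. Pou2af1 and Herpud1 kept their calls in every alternative.

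At 12 months 3 of these 21 genes were lower in Pt-CrAT and none was higher, a share near the 16.4% of all genes called there in either direction. Xbp1 had a log2 difference of -1.37 (SE 0.43, edgeR adjusted p = 0.0366), Txndc5, a disulfide isomerase, of -1.02 (SE 0.33, 0.0369) and Eaf2, an elongation factor partner, of -0.84 (SE 0.25, 0.0267). Xbp1 stood at 152 CPM in Wt12MLFD326, the library with the highest Ighm of its age, and at 48.5 and 47.5 CPM in Wt12MLFD327 and Wt12MLFD368, against 24.1, 26.3 and 44.7 CPM in Pt-CrAT. Without Wt12MLFD326 the differences were -0.58, -0.54 and -0.59 (adjusted p = 0.396, 0.338 and 0.184), and each call was also lost without CrAT12MLFD328 or CrAT12MLFD337 (highest adjusted p = 0.172 for Xbp1, 0.169 for Txndc5 and 0.14 for Eaf2). Of the other lists, Ralgps2 among the B cell genes was higher (0.55, SE 0.17, edgeR adjusted p = 0.0346) and the tubular protein receptor gene Lrp2 lower (-1.12, SE 0.28, 0.0155), and both calls were lost without Wt12MLFD326, CrAT12MLFD328 or CrAT12MLFD337 (Ralgps2 also without Wt12MLFD368). Adipocyte markers stood higher in Pt-CrAT at 12 months (6 of 7 called, median log2 difference 3.77), and their part in these results was not tested. In a fit of the 12-month groups alone none of these 5 genes was called (adjusted p = 0.158 to 0.165), and limma-voom did not call Txndc5 (0.0756). No gene of these lists was called between the genotypes at 15 or 24 months, in the mean over ages or in the interaction.

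Genes of the B cell itself were tested next. Of 26 tested, 4 were higher with age and none lower, with a median of 0.21: Cd72 (0.70, SE 0.17, edgeR adjusted p = 0.00749), Syk (0.87, 0.0188), Ebf1 (0.46, 0.0204) and H2-Aa (0.42, 0.0355). The share called, 4 of 26, is near the 16.4% of all genes called in either direction. Syk is a kinase of many leukocytes, and H2-Aa is an antigen-presenting chain found also on dendritic cells and macrophages. Of 3 tested B cell markers none passed. Sums over the 4 in the count table were 1.61 to 2.68 CPM in fl/fl and 2.56 to 2.74 CPM in Pt-CrAT at 15 months, and 0.848 to 4.75 CPM and 1.89 to 3.13 CPM at 24 months. Ms4a1, which encodes CD20, had 162 counts over all libraries and none in 1. Ms4a1 (0.40, SE 0.57, adjusted p = 0.674) and Cd22 (-0.19, SE 0.33, 0.735) did not pass. Cd72 kept its call in every alternative, while H2-Aa lost it without any of 8 libraries (highest adjusted p = 0.105, without CrAT15Mchow185 or CrAT15Mchow204). Syk lost it without Wt15Mchow205, Wt15Mchow227, CrAT15Mchow185 or CrAT15Mchow204 (highest 0.0638), and Ebf1 without Wt15Mchow227 (0.0754) or CrAT15Mchow204 (0.055).

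Among 13 tested genes listed for lymphoid recruitment and B cell survival, 4 were higher with age and none lower, with a median of 0.25. Over all genes 9.41% were called higher and 16.4% in either direction. Vcam1, an adhesion molecule for lymphocytes, rose by 0.69 (SE 0.12, edgeR adjusted p = 0.000873), Tnfsf13b, which encodes the B cell survival factor BAFF, by 0.95 (SE 0.27, 0.0187), Il7r by 1.03 (SE 0.32, 0.0318) and the chemokine gene Cxcl12 by 0.51 (SE 0.16, 0.0283). The B cell chemokine Cxcl13 stood at 0.91 (SE 0.42, 0.146). The list also holds genes that act on other lymphocytes, and which cells these transcripts came from was not tested. Vcam1 kept its call in every alternative. The other calls were lost without CrAT15Mchow185 or CrAT15Mchow204, and also without Wt15Mchow225 for Tnfsf13b, without Wt15Mchow227 or Wt24Mchow154 for Il7r, and without Wt15Mchow205 or CrAT24Mchow123 and CrAT24Mchow136 together for Cxcl12. The highest adjusted p was 0.0634 for Tnfsf13b, 0.0994 for Il7r and 0.0984 for Cxcl12. Il7r was not called by limma-voom (0.0594).

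Among 13 receptors and transporters of immunoglobulins, 4 were higher with age and 2 lower, with a median of 0.19. Over all genes 9.41% were called higher and 16.4% in either direction. Pigr, the polymeric immunoglobulin receptor that carries IgA and IgM across epithelium, rose by 0.71 (SE 0.18, edgeR adjusted p = 0.00993), from 117 to 195 CPM at 15 months to 172 to 432 CPM at 24 months. Fcer1g, the shared signalling chain of Fc receptors, rose by 0.95 (SE 0.19, 0.00228), and the IgG receptors Fcgr3 and Fcgr4 by 0.57 (SE 0.15, 0.0154) and 0.89 (SE 0.30, 0.0465). Fcgrt, the neonatal Fc receptor that recycles IgG, fell by 0.27 on the log2 scale (SE 0.09, 0.0419), and Amn, a partner of the tubular protein receptor cubilin, by 0.33 (SE 0.09, 0.0186). Pigr and Fcer1g kept their calls in every alternative. Fcgr4 lost its call without any of 13 of the 16 libraries and Fcgrt without any of 11 (highest adjusted p = 0.117 without Wt15Mchow227, and 0.124 without Wt15Mchow225). Fcgr4 was also not called by limma-voom (0.0741) or with no filter on low counts (0.0533). Without CrAT24Mchow123 and CrAT24Mchow136 together, Fcgrt (0.137), Fcgr4 (0.0968) and Amn (0.0632) lost theirs. Amn also lost it without Wt15Mchow227 (0.0567) or CrAT15Mchow204 (0.0627), and Fcgr3 without CrAT15Mchow185 (0.0502).

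Markers of other cells moved alongside the members from 15 to 24 months, where 9.41% of all genes were called higher. Summed levels cover every listed marker in the count table, tested or not. Of 10 tested T cell markers, 2 were higher (Lck and Thy1; median log2 fold change 0.75), with summed levels of 7.92 to 15.3 CPM in fl/fl and 11.3 to 19.3 CPM in Pt-CrAT at 15 months, and 12.0 to 27.1 CPM and 15.6 to 29.1 CPM at 24 months. Of 10 macrophage and dendritic cell markers, 5 were higher (Adgre1, C1qb, C1qc, Lyz2 and Cd14; median 0.63), with sums of 258 to 288 CPM and 263 to 391 CPM at 15 months, and 329 to 561 CPM and 358 to 657 CPM at 24 months. Both tested neutrophil markers, S100a8 and S100a9, were higher (sums of 3.53 to 8.72 CPM and 14.4 to 19.0 CPM, then 15.4 to 79.4 CPM and 13.2 to 76.4 CPM).

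Markers of kidney cells were also compared, beside 9.41% of all genes called higher and 16.4% in either direction. Sums again cover every listed marker in the count table, tested or not. The 3 tested urothelial markers, Upk1b, Upk3a and Krt15, were higher at 24 months (sums of 6.43 to 8.11 CPM in fl/fl and 0.495 to 1.81 CPM in Pt-CrAT, then 7.84 to 20.1 CPM and 4.92 to 23.0 CPM). Of 7 proximal tubule markers, 3 were lower (Slc34a1, Slc5a2 and Slc22a6), with sums of 35666 to 43494 CPM and 42542 to 48359 CPM, then 32817 to 41158 CPM and 9428 to 37388 CPM. Of the other lists, 2 of 6 fibroblast markers (Col1a1 and Pdgfra), 1 of 6 red cell markers (Hba-a1) and 1 of 5 endothelial markers (Prox1) were higher, and of 6 markers of other nephron segments 2 were higher and 1 lower. None of 7 adipocyte or 2 natural killer cell markers passed. The part of these cells or of the tissue taken in the members' change was not tested. Without CrAT24Mchow123 and CrAT24Mchow136 together, the same 4 members were called in the mean change with age: Ighg2c at 3.83 (adjusted p = 0.00155), Ighg2b at 2.93 (0.00286), Igkc at 1.55 (0.00683) and Mzb1 at 0.99 (0.000743).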

How the data were processed

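RNA of kidney cortex was extracted with TRIzol and made into 3′ tag libraries (Lexogen QuantSeq 3′ FWD), per the labels' protocols. The raw count table was used as the authors deposited it, with whole-number counts per Ensembl gene on GRCm38, per the submitters' processing notes. Which aligner, counter, strand option and annotation were used is not given in the sources used here. The authors' second deposited table holds normalized signal, counts divided by DESeq2 size factors (DESeq2 1.18.1 in R 3.4.3, as the submitters' processing notes list). It served for gene names and as a check: size factors recomputed from the counts matched it to within 5.84e-11. Every gene in the table had at least 66 counts in all. Names for 16514 identifiers came from GENCODE release M21.

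Counts were fitted in edgeR 4.0.16 (R 4.3.3, limma 3.58.1) by the quasi-likelihood method with robust estimation, TMM scaling and the filterByExpr filter, with 6 groups, 22 libraries and 16 residual degrees of freedom. There were 8 comparisons: genotype at each age, its mean over ages, age within each genotype, their mean, and the interaction. P-values were adjusted by Benjamini and Hochberg's method over 15064 genes, with calls at 0.05. The biological coefficient of variation was 20.5%. The fit was tested on simulated data. Relations to Igkc used log2(CPM + 0.5) with permutation tests. Of the relations intended, 7 were run, since Cd79a was not analysed here. For the same reason no ranking of genes by likeness to Cd79a was made. Intervals are exact. The comparisons share libraries, so they are not independent of each other.

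The members and all gene lists were chosen with earlier results of these data known. Named genes are the members, up to 6 called genes per list by smallest p-value (up to 2 not called where none was), and the 8 genes most like Igkc. Xbp1, Prdm1, Sdc1, Cxcl13, Ms4a1, Cd22 and Spata24 are named besides. Alternatives were DESeq2 size factors, no filter, the DESeq2 1.42.0 Wald test, limma-voom, a fit of the compared groups alone, edgeR without robust estimation, a pseudocount of 0.1, and leaving out each library in turn.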

Additional observations from a re-analysis of the deposited data

Results flagged for a closer look

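Of 20 groups of 5 libraries checked, 5 held a library whose gap to the nearest of the others was large for the group's range, by Dixon's criterion. About 1 in 20 groups would be marked by chance if values were normally distributed and the groups independent. The values were checked without a log scale, and the groups share the same libraries at 24 months. The number marked therefore cannot be set against that rate. At 24 months in fl/fl, Wt24Mchow164 stood apart with the highest Ighg2c (41.5 CPM) and the highest Ighg2b (33.7 CPM). In Pt-CrAT, CrAT24Mchow136 stood apart with the highest Ighm (200.4 CPM) and CrAT24Mchow135 with the highest Igha (195 CPM). CrAT24Mchow124 had the lowest kappa share of the light chain counts in its group (82.0%). These are 4 different animals, each apart for a different chain or class. Without any of them the 4 calls of the mean change with age were kept, with adjusted p-values over all libraries left out in turn of at most 0.00434 for Ighg2b, 0.00401 for Ighg2c, 0.0141 for Igkc and 0.00174 for Mzb1.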

How the results depend on the processing

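In the mean change with age, Ighg2b, Ighg2c, Igkc and Mzb1 were called under every alternative run, with 4 or 5 members called. Other results moved as follows. DESeq2 called 729 genes and 4 members with age in fl/fl, 23 genes in the interaction, 195 by mean genotype and 8 by genotype at 24 months. Without robust estimation 2 members were called in fl/fl. With the compared groups alone, 1 gene was called at 12 months and 4 at 15 months. Without CrAT24Mchow123 and CrAT24Mchow136 together, an alternative added after seeing the data, 417 genes and 2 members were called with age in Pt-CrAT, 1 gene by mean genotype, and Ighg2c at 24 months turned to -0.59. The same settings were applied to the pathway genes after seeing the data. The cause of these shifts was not tested.

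Leaving out each library in turn gave 3 to 756 genes and 0 to 2 members with age in fl/fl, 393 to 1777 genes and 2 to 4 members in Pt-CrAT, and 1453 to 2547 genes in the mean. By genotype it gave 53 to 3513 genes at 12 months, 0 to 2 at 24 months and 1 to 262 in the mean. Values that changed sign were all uncalled. With age in Pt-CrAT, Cd79b ran from -0.47 to 0.092 and Igha from -0.44 to 0.66. In the interaction, Igkc ran from -0.10 to 0.51 and Jchain from -0.46 to 0.071. By mean genotype, Igkc ran from -0.14 to 0.24, Jchain from -0.27 to 0.019 and Mzb1 from -0.0089 to 0.12. At 12 months, Igha ran from -0.20 to 0.51, Ighg2b from -0.85 to 0.052, Igkc from -0.95 to 0.17 and Mzb1 from -0.0045 to 0.37. At 15 months Ighm ran from -0.84 to 0.13. At 24 months Cd79b ran from -0.63 to 0.057, Ighg2c from -0.51 to 1.11 and Jchain from -0.077 to 0.45. Over the members and list genes, 993 of these left-out values kept direction and side of the threshold, 127 lost a call, 4 gained one and 28 changed sign.

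No paired analysis was possible because no replicate number is shared between groups. With a pseudocount of 0.1 the 7 relations to Igkc kept their direction and side of the threshold, and Itgav replaced Etv4 among the 8 genes most like it. The likeness ranking for Cd79a was not run, and a fit of the compared groups alone is the same as the reported fit for the mean over ages. Depth limits Cd79b and, at 15 months, Ighg2c most, with as few as 4 and 2 counts in a library.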
